A study of Mus musculus with 16 samples.

Results

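NRF2 (gene symbol Nfe2l2) is the transcription factor that switches on antioxidant genes, and Nfe2l2 and 9 of its well-known targets were measured in jejunal enteroids with and without functional myosin Vb (MYO5B). The 10 genes were chosen by their symbols, Nfe2l2, Nqo1, Gclc, Gclm, Hmox1, Txnrd1, Srxn1, Slc7a11, Gsr and Prdx1, out of 54532 genes in the count table. All 10 were found and all 10 had enough counts to be tested in every comparison. In resting cells the adaptor KEAP1 hands NRF2 to a CUL3 and RBX1 ubiquitin ligase for degradation. When oxidants or electrophiles modify KEAP1, NRF2 protein accumulates, pairs with a small MAF protein and binds antioxidant response elements (AREs), a site that BACH1 can occupy instead. Because this control acts on the protein, the mRNA of Nfe2l2 does not report NRF2 activity, and the mRNAs of the targets are the usual readout. In the gut, these targets supply glutathione, reduce thioredoxin and detoxify quinones and heme.

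Enteroids are epithelial cultures grown from intestinal crypts, here from the jejunum of adult mice. RNA from 16 cultures was sequenced, 4 in each of 4 groups. MYO5BΔIEC cultures carried Vil-CreERT2 and Myo5b flox/flox, a Cre driven by the villin promoter and so restricted to epithelium, and were given 1 µM 4-OH-tamoxifen for 24 h to delete Myo5b and then vehicle (PBS). MYO5B(G519R) cultures carried Vil-CreERT2 and Myo5b flox/G519R, so that the same 24 h of 1 µM 4-OH-tamoxifen left the allele with the patient point mutation, and their label names no treatment. The treated group was MYO5BΔIEC with 100 nM Compound-1, an agonist that prefers the lysophosphatidic acid receptor LPAR5. For the control cultures the sample records name no 4-OH-tamoxifen, and the study's methods describe uninduced Vil-CreERT2 Myo5b flox/flox cultures given ethanol, while elsewhere the study calls the controls of this experiment healthy littermates, so that their exact genotype is uncertain. The effects of the drug and of Cre activity therefore cannot be told apart from loss of MYO5B in any comparison with controls. Every group spent 2 days in a differentiation medium. The study states 4 cultures from 4 mice per group.

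The libraries held 27804968 to 40101729 counted reads, and levels are given below as CPM, counts scaled to library size on a single TMM scale over the 16 libraries. Epithelial markers were abundant in all cultures, with Epcam at 975 to 1442 CPM. Fibroblast Col3a1 and Dcn and macrophage Adgre1 were at 0 in all 16 cultures, where 3 reads would give 0.0737 to 0.111 CPM. Other markers of nonepithelial cells were low but not all at 0. Fibroblast Col1a1 and Pdgfra reached 0.463 and 0.46 CPM and immune Cd79a 0.334 CPM. Endothelial Pecam1 was at 0.0888 to 1.35 CPM. Myo5b itself lay between 160 and 230 CPM in controls. It lay between 101 and 170 CPM in MYO5BΔIEC, between 136 and 173 CPM in MYO5B(G519R) and between 87.2 and 149 CPM with Compound-1, so that these ranges partly overlap. Its count covers the whole gene, exons outside the deleted part and the mutant allele included, and so does not measure recombination. Control culture 1 stood apart from the other 3 controls. Its summed enterocyte markers were 2617 CPM against a control median of 11953 CPM, and its stem and proliferation markers were the lowest of the controls at 3322 CPM. Cell type markers also moved with genotype. The summed enterocyte markers reached 2617 to 14894 CPM in controls and 5113 to 10332 CPM after deletion. They reached 4658 to 7220 CPM for G519R and 4662 to 6328 CPM with Compound-1. The summed stem and proliferation markers reached 3322 to 7525 CPM in controls and 1597 to 2783 CPM after deletion. The range was 2029 to 3514 CPM for G519R and 943 to 2689 CPM with Compound-1. The summed Paneth cell markers had medians of 4383 CPM in controls, 2395 CPM after deletion, 2117 CPM for G519R and 2412 CPM with Compound-1. The share of reads from mitochondrially encoded genes had medians of 9.31%, 5.1%, 4.61% and 4.72% in the same order. The part of these shifts in the results below was not tested, and in such bulk RNA fewer cells of a type and less RNA per cell cannot be told apart. Fold changes of the 10 genes and counts of the gene lists that rest on control culture 1 are given with and without it for MYO5BΔIEC and MYO5B(G519R). For the treated group the count of the 10 is given both ways.

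Of the 10 genes, 3 passed the test in MYO5BΔIEC and 2 in MYO5B(G519R), where 27.4% and 26.8% of all genes tested passed. Txnrd1 and Srxn1, which regenerate thioredoxin and peroxiredoxins, were higher in MYO5BΔIEC than in controls, and Prdx1, a peroxiredoxin, was lower. Of the 8 fits leaving out 1 culture, 8 kept the Txnrd1 call, 3 that of Srxn1 and 2 that of Prdx1. In MYO5B(G519R) Txnrd1 was higher and Prdx1 lower, calls kept in 8 and 2 of 8 such fits. Glutathione synthesis genes and Nfe2l2 did not pass the test in either model. With Compound-1, no gene of the 10 passed against vehicle, where 0% of all 18037 genes tested passed.

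The promoters of Prdx1, Srxn1 and Gclm are shown because these genes were lower (Prdx1), higher (Srxn1) and without a call (Gclm) in MYO5BΔIEC. Windows of 250 bases before the RefSeq start of transcription were taken from the RefSeq promoter table (build GRCm38.p6), which matched 7 of the 10 genes in 9 windows. A pair of motifs was searched on both strands. TGACNNNGC is a core form of the antioxidant response element, and TGACTCA is the site of AP-1 and lies within that of small MAF dimers. Only these letters were searched, so that response elements of other letters are not marked. A TGACTCA followed by GC matches both motifs. The stretches printed are on the plus strand, which is the coding strand of all 3 genes, and end before the first annotated exon base. Capitals mark the motif matches.
Prdx1, chr4:116685349-116685543: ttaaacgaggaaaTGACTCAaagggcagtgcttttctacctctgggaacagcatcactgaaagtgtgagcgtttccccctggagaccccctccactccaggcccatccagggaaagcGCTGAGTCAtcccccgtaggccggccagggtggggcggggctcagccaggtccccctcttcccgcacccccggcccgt
Srxn1, chr2:152105274-152105515: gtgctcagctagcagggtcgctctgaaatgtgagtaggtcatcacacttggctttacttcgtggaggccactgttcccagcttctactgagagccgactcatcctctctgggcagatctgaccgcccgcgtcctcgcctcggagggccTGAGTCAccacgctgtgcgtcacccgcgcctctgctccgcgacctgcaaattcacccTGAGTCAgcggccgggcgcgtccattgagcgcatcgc
Gclm, chr3:122245307-122245556: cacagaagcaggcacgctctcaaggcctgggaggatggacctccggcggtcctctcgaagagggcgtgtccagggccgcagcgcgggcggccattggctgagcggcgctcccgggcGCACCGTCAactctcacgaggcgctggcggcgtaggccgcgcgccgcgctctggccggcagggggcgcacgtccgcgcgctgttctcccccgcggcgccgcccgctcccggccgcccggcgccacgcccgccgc

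The Prdx1 stretch held TGACTCA at 237 to 231 bases before the start, and another TGACTCA at 131 to 125 bases that lies within a TGACNNNGC match. Srxn1 held TGACTCA at 102 to 96 and at 45 to 39 bases before the start. On the printed strand the latter reads TGAGTCA and is followed by GC, a string that the search for TGACNNNGC did not cover. Gclm held TGACNNNGC at 134 to 126 bases. TGACNNNGC was found in 4 of the 9 windows (Gclm, Nfe2l2, Prdx1 and the second of Txnrd1), against 10.2% of 32851 promoters of the same length. TGACTCA was found in 2 of the 9 windows, those of Prdx1 and Srxn1, against 4.46% of all promoters. In MYO5BΔIEC, Prdx1 was called lower and Srxn1 higher, and both held TGACTCA, Prdx1 with TGACNNNGC as well. Txnrd1, called higher, and Gclm, which did not pass, both held TGACNNNGC and no TGACTCA. The motifs found thus did not separate genes with a call from those without. Whether either motif bears on these mRNAs was not tested. A match is a string of letters and no measure of binding, and no match says only that the letters are not in this window.

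**Figure D1:**
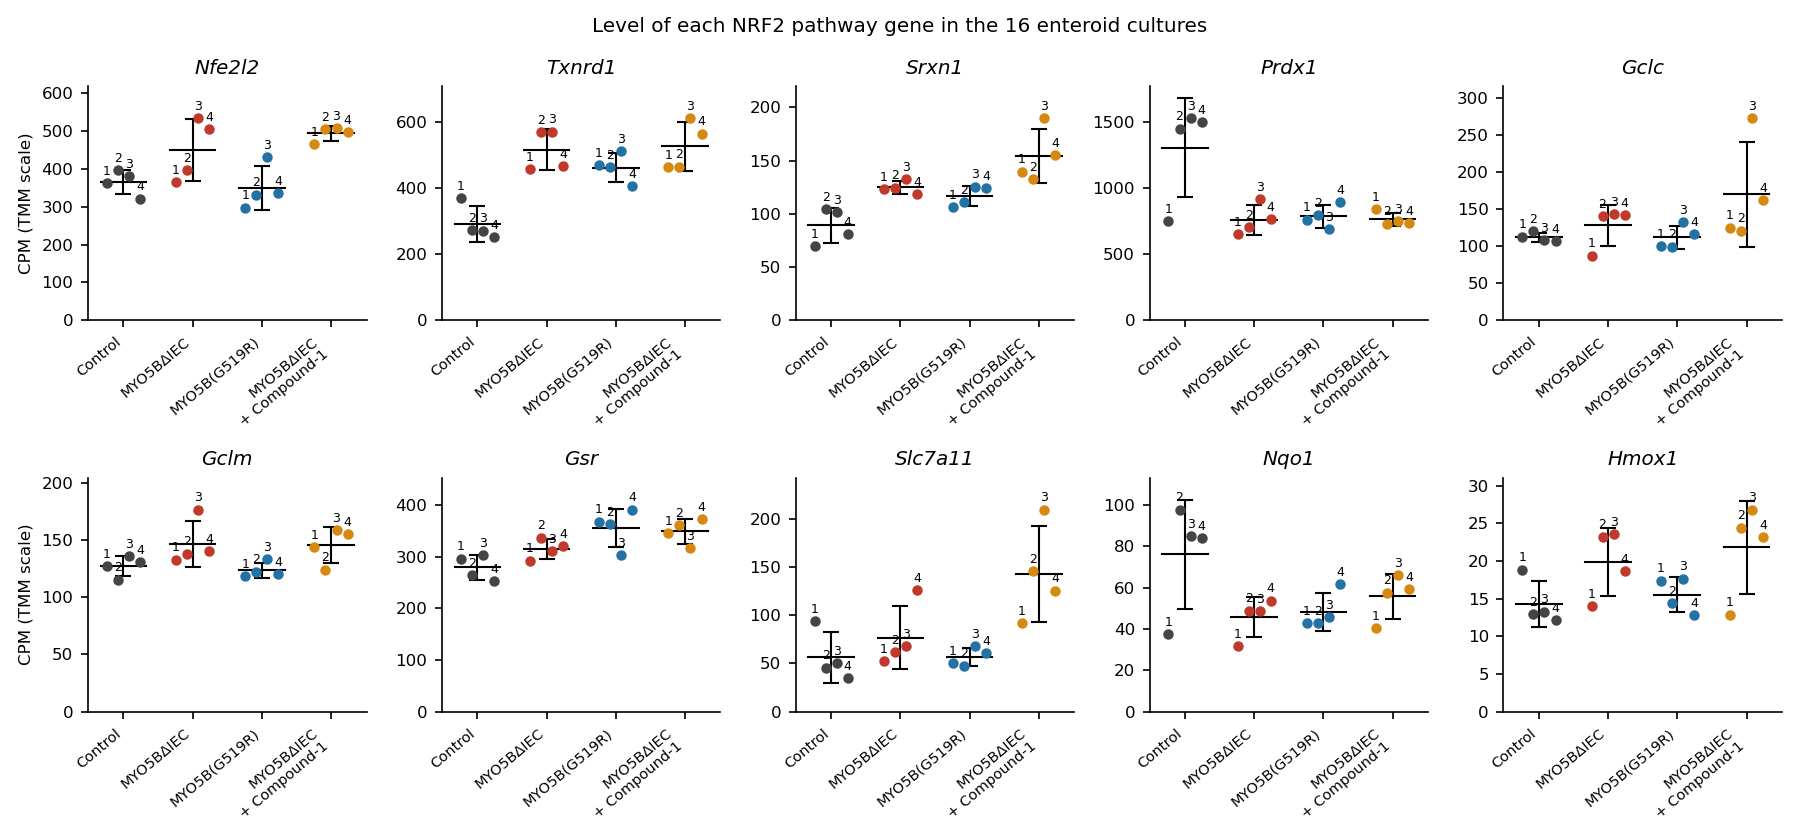
CPM (vertical axis, TMM scale, from 0) of the 10 genes in the 16 cultures by group, with each culture's number above its point, the group mean as a bar and the SD as an error bar (n = 4). Txnrd1 and Srxn1 lay above every control in both models, and Prdx1 was at 652 to 917 CPM in the model and treated cultures, a range that also held control culture 1.

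Deletion of Myo5b was compared with controls first. In MYO5BΔIEC, 3 of the 10 genes passed at an adjusted p under 0.05, 2 higher and 1 lower, where 27.4% of 17951 genes tested passed, 13.5% higher and 13.8% lower. The share of the 10 was thus close to that of all genes. With an offset for gene length the share of all genes called higher was 9.99% of a total of 27.2%. The median log2 fold change was 0.26 over the 10 genes and -0.01 over all genes tested. The groups did not overlap for 2 of the 10 genes, both higher, against 26.9% of all genes in either direction and 13% higher. In MYO5B(G519R), 2 of the 10 passed, 1 in each direction, where 26.8% of 17829 genes passed. The median was 0.0031 over the 10 genes and -0.05 over all genes. Groups did not overlap for 2 of the 10, against 27.4% of all genes. Both comparisons used the same 4 controls. Without control culture 1, 6 of the 10 passed in MYO5BΔIEC (4 higher, 2 lower, where 42% of all genes passed) and 5 in MYO5B(G519R) (3 higher, 2 lower, where 46.2% passed). Leaving out any other single culture gave 1 to 2 in each model, where as few as 16.7% and 16.3% of all genes passed.

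**Figure D2:**
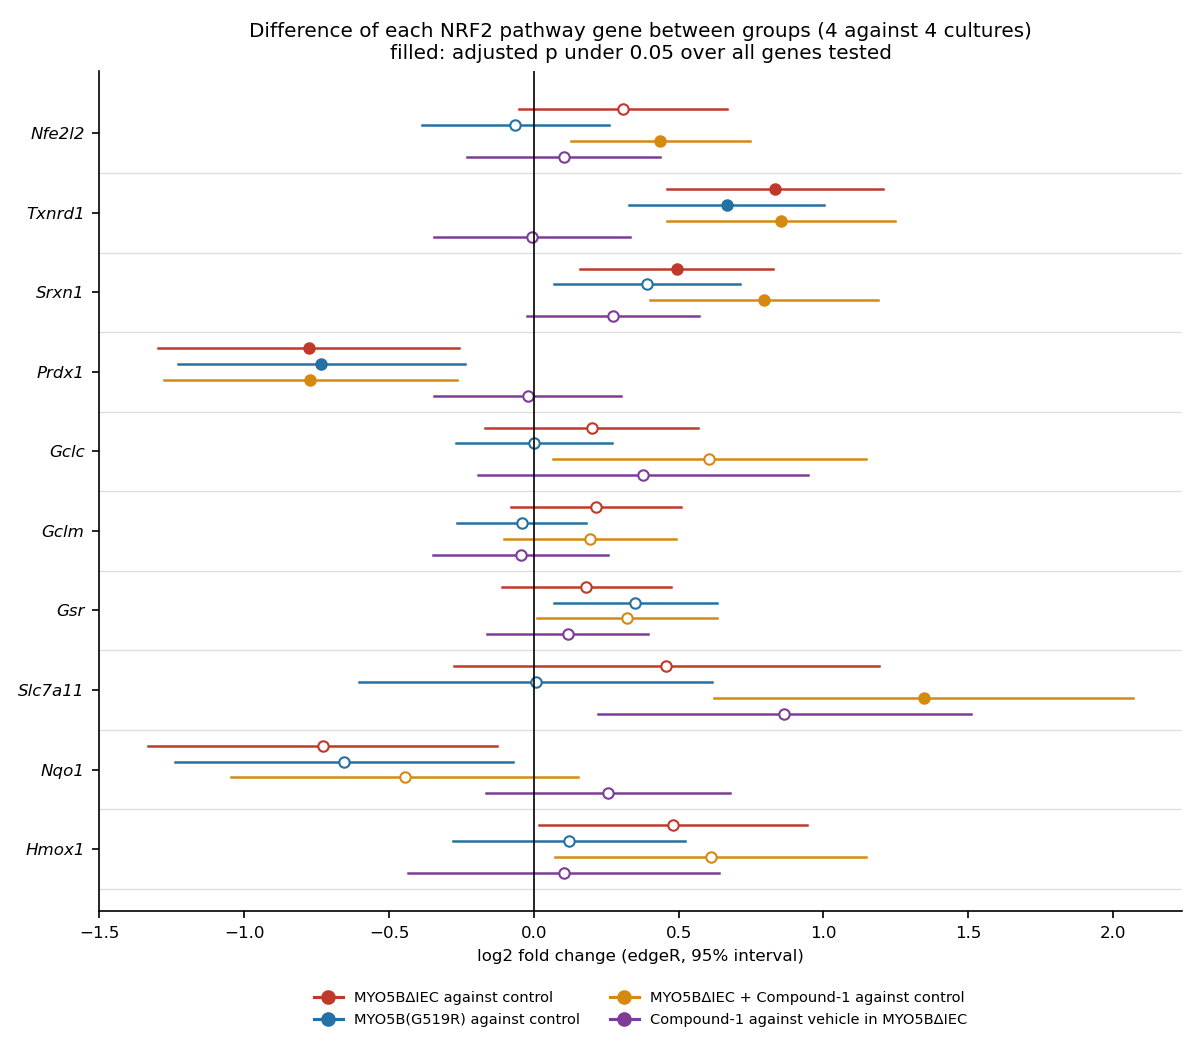
Log2 fold change of each gene (horizontal axis) with its 95% interval from edgeR, 4 against 4 cultures, for MYO5BΔIEC, MYO5B(G519R) and treated MYO5BΔIEC against control and for Compound-1 against vehicle. Filled points passed at an adjusted p under 0.05 over all genes tested, which were Txnrd1 and Prdx1 in all 3 comparisons with controls, Srxn1 in 2, and Nfe2l2 and Slc7a11 in 1.

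Thioredoxin reductase 1, Txnrd1, is the cytosolic selenoenzyme that keeps thioredoxin reduced. Its level in controls was 370 CPM in culture 1 and 274, 271 and 251 in cultures 2 to 4. In MYO5BΔIEC it was 458, 570, 571 and 466 CPM. In MYO5B(G519R) it was 469, 464, 511 and 405 CPM. All 8 model cultures lay above all 4 controls. The fold change was 1.78 in MYO5BΔIEC (log2 0.83, SE 0.168, adjusted p = 0.00587, edgeR quasi-likelihood test with Benjamini-Hochberg adjustment) and 1.59 in MYO5B(G519R) (log2 0.67, SE 0.151, adjusted p = 0.0114). Txnrd1 passed in both models with each culture left out in turn and under each of the 11 other settings tried. Control culture 1 was the highest control, and without it the log2 fold changes were 0.97 and 0.83. The gene spans chr10:82833951-82897712 (GRCm38) on the plus strand and overlaps Eid3 and some noncoding genes, which held at most 167 reads in a library where Txnrd1 held at least 6786.

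Sulfiredoxin, Srxn1, repairs peroxiredoxins whose cysteine has been over-oxidised, and its gene lies at chr2:152105516-152111376 (GRCm38, plus strand). Controls held 69.6, 104, 102 and 80.8 CPM, and MYO5BΔIEC cultures held 123, 125, 133 and 119 CPM. MYO5B(G519R) cultures held 106, 111, 125 and 124 CPM. Every model culture was above the controls, the lowest of them, MYO5B(G519R) culture 1, only narrowly. The fold change was 1.41 in MYO5BΔIEC (log2 0.49, SE 0.151, adjusted p = 0.0338). In MYO5B(G519R) the log2 fold change of 0.39 did not pass (adjusted p = 0.0708). The MYO5BΔIEC call was lost when culture 1, 2 or 3 of that group or control culture 3 or 4 was left out, with adjusted p between 0.0506 and 0.102, and was kept without control culture 1, 2 or MYO5BΔIEC culture 4. It was also lost without a filter on low counts (adjusted p = 0.0569) and with a replicate block (adjusted p = 0.0506). In MYO5B(G519R) Srxn1 passed by DESeq2 (adjusted p = 0.0306), with a gene length offset (0.0404) and by limma on log2(FPKM + 0.1) (0.0499). Without control culture 1 the MYO5B(G519R) value was 0.32 and passed (adjusted p = 0.0325).

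Peroxiredoxin 1, Prdx1, is an abundant cytosolic peroxidase that thioredoxin reduces, and it was the most abundant of the 10 genes per length, at 416 FPKM in controls. Its gene lies at chr4:116685544-116700822 (GRCm38, plus strand). Controls 2, 3 and 4 held 1450, 1528 and 1496 CPM, but control culture 1 held 747 CPM. MYO5BΔIEC cultures held 652, 704, 917 and 764 CPM, and MYO5B(G519R) cultures 762, 796, 688 and 894 CPM. Control culture 1 thus lay within the range of the models. Prdx1 was lower 1.71-fold in MYO5BΔIEC (log2 -0.78, SE 0.235, adjusted p = 0.0323) and 1.66-fold in MYO5B(G519R) (log2 -0.73, SE 0.223, adjusted p = 0.0358). The call was kept in 2 of the 8 fits that left out 1 culture, in each model. Of those 2, the fit without control culture 1 was common to both models, and there the log2 fold changes were -0.97 and -0.90. In the fits that lost it the adjusted p reached 0.0958 and 0.1. By limma on log2 FPKM with a pseudocount of 1 or 0.1 Prdx1 passed in neither model (adjusted p between 0.07 and 0.0826), and with the replicate block it did not pass in MYO5B(G519R) (adjusted p = 0.0651).

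Glutathione, the other thiol buffer, is made in a first step by glutamate-cysteine ligase, of which Gclc encodes the catalytic and Gclm the modifier subunit. Gclc was at 113, 120, 108 and 106 CPM in controls, at 87.2, 140, 143 and 141 CPM in MYO5BΔIEC and at 99.5, 99.4, 132 and 116 CPM in MYO5B(G519R). In MYO5BΔIEC, 3 of the 4 cultures were above all controls and culture 1 was below them. The log2 fold changes were 0.20 (95% interval -0.17 to 0.57, adjusted p = 0.409) and -0.00021 (-0.27 to 0.27, adjusted p = 0.999). Gclm lay between 115 and 135 CPM in controls, between 133 and 176 CPM after deletion and between 118 and 133 CPM in the G519R cultures. Its log2 fold changes were 0.21 (adjusted p = 0.261) and -0.04 (adjusted p = 0.803). The MYO5BΔIEC value of Gclm depended on gene length, being -0.0014 with a length offset. Leaving out 1 culture moved Gclc in MYO5BΔIEC between 0.14 and 0.35 (the latter without culture 1) and Gclm between 0.11 (without culture 3) and 0.26.

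Glutathione reductase, Gsr, returns oxidised glutathione to the reduced form. Controls held 296, 264, 303 and 253 CPM, MYO5BΔIEC 292, 337, 311 and 320 CPM, and MYO5B(G519R) 367, 362, 303 and 391 CPM. In MYO5B(G519R), 3 cultures lay above all controls and culture 3 was level with the highest. The log2 fold changes were 0.18 (adjusted p = 0.34) in MYO5BΔIEC and 0.35 (adjusted p = 0.0645) in MYO5B(G519R). The MYO5B(G519R) value was 0.42 without its culture 3 (adjusted p = 0.0429) and 0.41 without control culture 1 (adjusted p = 0.0142), and so passed in those fits. It also passed by DESeq2 (adjusted p = 0.0152) and with all 4 groups in 1 fit (adjusted p = 0.0378).

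Slc7a11 encodes xCT, the subunit of the cystine importer that feeds glutathione synthesis. It was the lowest of the 10 genes per length, at 3.94 FPKM in controls. Controls held 94, 45.5, 50.3 and 34.9 CPM, with culture 1 the highest. MYO5BΔIEC cultures held 52.1, 61.9, 67.9 and 125 CPM, and MYO5B(G519R) cultures 50, 47.8, 67.6 and 60.4 CPM. Both models overlapped the controls. The log2 fold changes were 0.46 (adjusted p = 0.338) and 0.0065 (adjusted p = 0.99). In MYO5BΔIEC the value moved to 0.82 without control culture 1, where it passed (adjusted p = 0.0305), to 0.12 without MYO5BΔIEC culture 4 and to 0.29 without control culture 4. In MYO5B(G519R) it was 0.40 without control culture 1 (adjusted p = 0.0514). Its partner subunit Slc3a2 was at 233 CPM in control culture 1 against 94.9 to 98.8 CPM in the other controls, and its log2 fold changes of 0.32 (adjusted p = 0.504) and 0.09 (adjusted p = 0.843) did not pass. With that culture left out they were 0.76 and 0.57 and passed in both models (adjusted p = 0.0152 and 0.000949). ATF4, which drives the 10 amino acid stress genes listed below, also acts on Slc7a11. Those genes summed to 2990 CPM in control culture 1 (other controls 1549 to 1908) and 2202 CPM in MYO5BΔIEC culture 4 (others 864 to 1348). In MYO5B(G519R) and treated cultures the sum was lowest in culture 3 (986 and 870 CPM), where Slc7a11 was highest. Any part of amino acid stress in the Slc7a11 levels was not tested.

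Nqo1, a quinone reductase that uses NADPH or NADH, is a standard marker of NRF2 activity. Controls held 37.6, 97.7, 85.1 and 84.1 CPM. MYO5BΔIEC cultures held 31.8, 48.9, 48.6 and 53.7 CPM, and MYO5B(G519R) cultures 42.8, 42.9, 45.8 and 61.8 CPM. As for Prdx1, control culture 1 lay within the range of the models, and the other 3 controls lay above all 8 model cultures. The log2 fold changes of -0.73 (SE 0.273, adjusted p = 0.0695) and -0.65 (adjusted p = 0.0913) did not pass. In MYO5BΔIEC, Nqo1 passed under 5 of the 11 other settings, by DESeq2 (adjusted p = 0.0437), without a filter (0.0393), with all 4 groups in 1 fit (0.03), with the replicate block (0.0296) and with block and length offset (0.0311), at log2 values of -0.75 to -0.54. Without control culture 1 they were -0.95 (adjusted p = 0.000932) and -0.85 (adjusted p = 0.000469).

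Heme oxygenase 1, Hmox1, opens heme to biliverdin, iron and carbon monoxide. It was at 18.8, 12.9, 13.3 and 12.1 CPM in controls, 14, 23.3, 23.6 and 18.6 CPM in MYO5BΔIEC and 17.4, 14.4, 17.7 and 12.8 CPM in MYO5B(G519R). MYO5BΔIEC overlapped the controls through control culture 1, which was level with MYO5BΔIEC culture 4 and above culture 1, and MYO5B(G519R) lay within the control range. The log2 fold changes were 0.48 (adjusted p = 0.111) and 0.12 (adjusted p = 0.659). They were 0.64, which passed (adjusted p = 0.0188), without control culture 1, and 0.32 (adjusted p = 0.0989).

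The mRNA of the factor, Nfe2l2, was at 361, 396, 380 and 321 CPM in controls, 365, 397, 533 and 504 CPM in MYO5BΔIEC and 298, 332, 431 and 335 CPM in MYO5B(G519R). MYO5BΔIEC cultures 3 and 4 were above all controls, culture 2 was level with the highest control, and culture 1 lay among them. The log2 fold changes were 0.31 (SE 0.163, adjusted p = 0.184) and -0.06 (adjusted p = 0.788). Per length, the order of the 10 genes in controls was Prdx1, Gsr (98.7 FPKM), Nfe2l2 (93.5), Nqo1 (47.6), Txnrd1 (40.1), Srxn1 (30.7), Gclc (28.9), Gclm (19.6), Hmox1 (7.96) and Slc7a11. The ranges over controls overlapped for the neighbours Gsr and Nfe2l2, Nqo1 and Txnrd1, Txnrd1 and Srxn1, Srxn1 and Gclc, and Hmox1 and Slc7a11.

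**Figure D3:**
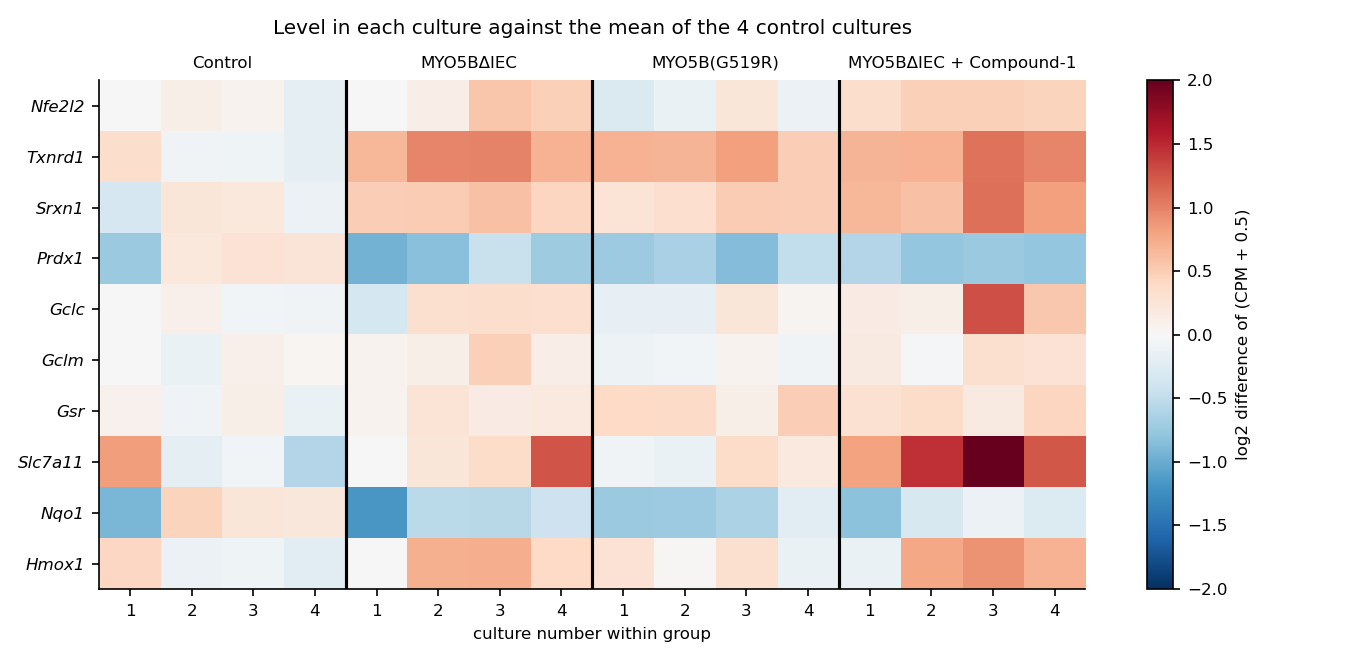
Log2 difference of each gene (rows) in each culture (columns) from the mean of the 4 controls, after adding 0.5 to the CPM, red for higher and blue for lower. Txnrd1 and Srxn1 were red in all 12 cultures without functional MYO5B, Prdx1 was blue in those 12 and in control culture 1, and Slc7a11 was darkest red in treated culture 3.

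Across the 16 cultures the level of Nfe2l2 (log2 CPM) went with Slc7a11 (Pearson r = 0.76), Gclm (0.72), Gclc (0.69), Srxn1 (0.65), Hmox1 (0.64) and Txnrd1 (0.52). For Gsr (0.079), Nqo1 (0.049) and Prdx1 (-0.26) r was near 0 or negative. These are descriptions over libraries of 4 groups, and they share group differences and library depth. Of 19000 genes, the 5 most like Nfe2l2 were Stam2 (0.91), Pxk (0.91), Gm30414 (0.90), Ms4a18 (0.89) and Coq10b (0.89), and Slc7a11 ranked 97. After removing group means, the highest r between members were those of Hmox1 with Txnrd1 (0.79) and Nqo1 with Prdx1 (0.76), and the lowest was that of Txnrd1 with Prdx1 (-0.58). Control culture 1 lay far from the control mean, by -0.92 for Nqo1, -0.75 for Prdx1 and 0.36 for Txnrd1 (log2). The other controls lay on the opposite side for each. These r were not computed without that culture.

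The wider network around NRF2 was described from 7 lists. Of 12 regulators, 4 were higher and 1 lower in each model, Keap1, Mafg, Maff and Mafk higher and Rbx1 lower in both, where 27.4% and 26.8% of all genes passed. Over the 12 genes the median of the log2 fold changes was 0.34 for the deletion and 0.25 for G519R. Mafk, a small MAF partner of NRF2, was at 23.6 to 28.6 CPM in controls, 37.4 to 47.3 in MYO5BΔIEC (log2 0.70, adjusted p = 0.00441) and 33.5 to 40.8 in MYO5B(G519R) (log2 0.50, adjusted p = 0.0137). Keap1, the adaptor that keeps NRF2 low, was at 54.3 to 60.3 CPM in controls, 66.3 to 96.2 in MYO5BΔIEC (log2 0.49, adjusted p = 0.0409) and 79.8 to 95.4 in MYO5B(G519R) (log2 0.59, adjusted p = 0.00392). Neither gene overlapped the controls. The Keap1 call in MYO5BΔIEC was kept in 3 of 8 fits that left out a culture. It was lost without a filter (adjusted p = 0.0597), with the replicate block (0.0936), with the length offset (0.132) and with both (0.221), where the value was 0.31. The Mafk call in MYO5B(G519R) was lost with block and offset (0.0791). Maff had log2 fold changes of 0.52 and 0.55. Rbx1, the RING subunit of the ligase, had -0.53 and -0.49. Bach1, the repressor that competes for the same sites, did not pass (log2 -0.01, adjusted p = 0.965, and -0.24, adjusted p = 0.272), but in MYO5B(G519R) it passed as lower with the length offset (log2 -0.39, adjusted p = 0.0391) and with block and offset (0.0485). The Maff and Rbx1 calls were each kept in 3 of 8 such fits in MYO5BΔIEC, and in 8 and 2 in MYO5B(G519R). In MYO5BΔIEC the Maff call was lost without a filter (adjusted p = 0.0614) and with the block (0.0766). In MYO5B(G519R) that of Rbx1 was lost with DESeq2 size factors, without a filter, with the block and by limma at both pseudocounts (0.0503 to 0.0558). Leaving out control culture 1, 10 of the 12 regulators passed in each model, 9 higher and 1 lower, where 42% and 46.2% of all genes passed.

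Among other peroxidases and thiol enzymes, Prdx4, Prdx3, Prdx2 and Gpx4 fell in both models. Of 17 genes, 1 was higher and 5 lower in each model, against 27.4% and 26.8% of all genes called, with medians of -0.45 and -0.46. Prdx4, the peroxiredoxin of the endoplasmic reticulum, was at 37.3, 67.4, 79.6 and 77.5 CPM in controls and at 19.8 to 27.9 CPM in MYO5BΔIEC (log2 -1.41, SE 0.23, adjusted p = 0.00258), with a log2 fold change of -0.93 in MYO5B(G519R) (adjusted p = 0.0163). Prdx3, the mitochondrial peroxiredoxin, fell by 0.77 and 0.74 on the log2 scale (adjusted p = 0.00279 and 0.00255). Gpx4, the peroxidase that reduces lipid hydroperoxides, fell by 0.69 and 0.80 (adjusted p = 0.0265 and 0.0109). The plasma-type glutathione peroxidase Gpx3 was the 1 gene that rose, by 1.56 and 1.01, from a low level of 1.33 to 2.31 CPM in controls. Of 17 tested conjugation and reduction genes (18 listed), none rose and 4 fell in each model, with medians of -0.53 and -0.68. Of all genes tested, 13.8% and 13.7% were called lower, and 27.4% and 26.8% in either direction. Mgst1, a membrane glutathione transferase, was at 127 CPM in control culture 1, at 438 to 480 in the other controls and at 139 to 182 in the 8 model cultures (log2 -1.24 and -1.22, adjusted p = 0.0215 and 0.0266). Ugt1a6a fell by 0.70 and 1.01 and Gstm3 by 0.77 and 0.88 on the log2 scale. Of these, Ugt1a6a and Gstm3 have close relatives, so that reads could be split between genes. With each culture left out in turn, Prdx3 passed in all 8 fits in both models and Prdx4 in 8 and 7, while Gpx4 passed in 2 and 8, Gpx3 in 8 and 3, Mgst1 in 2 and 1, Ugt1a6a in 4 and 8 and Gstm3 in 2 and 2. Under the other settings the MYO5BΔIEC call of Gpx4 was lost with the replicate block (adjusted p = 0.0604) and by limma (0.0512 and 0.0524). Mgst1 was lost by limma in both models (0.0749 to 0.0903) and with the block in MYO5B(G519R) (0.0633). Gstm3 was lost with the length offset in both models (0.114 and 0.0634), and in MYO5BΔIEC also with block and offset (0.0872) and with all 4 groups in 1 fit (0.0515). Without control culture 1 the log2 fold changes were -1.53 and -1.48 for Mgst1 and -0.85 and -0.93 for Gpx4. When control culture 1 was left out, 11 and 12 peroxidase-list genes passed, 1 of them higher in each case, and 14 and 15 conjugation genes, all lower, where 42% and 46.2% of all genes passed.

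**Figure D4:**
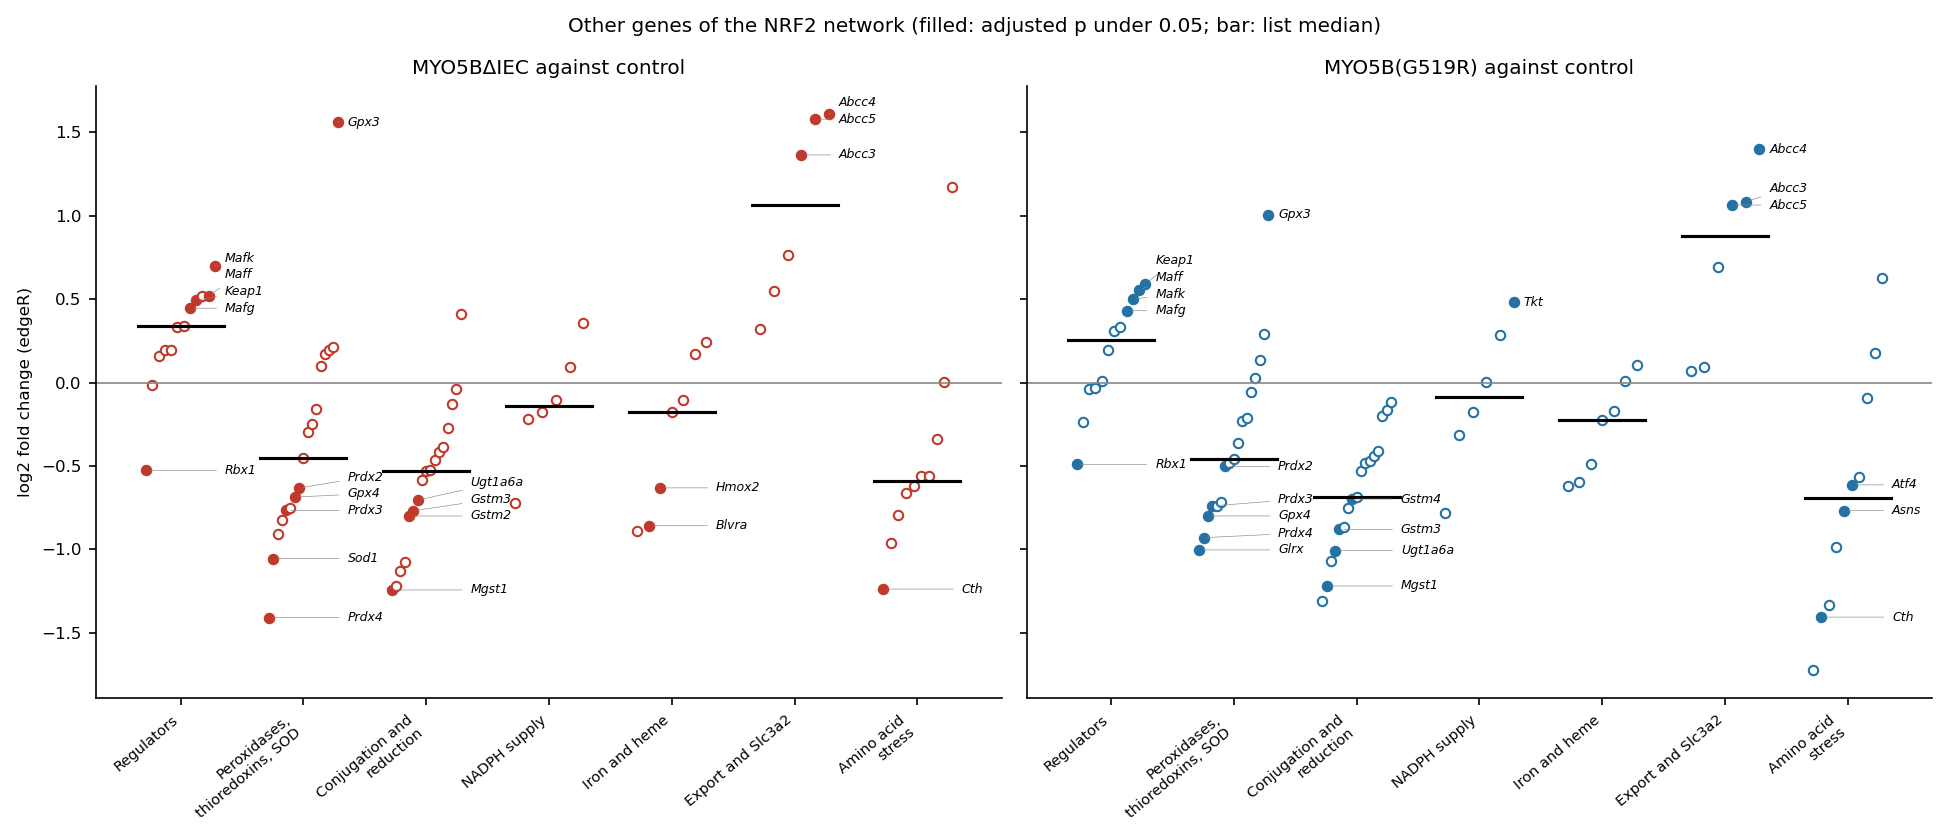
Log2 fold changes (vertical axis) of the genes of the 7 wider lists in MYO5BΔIEC (left) and MYO5B(G519R) (right) against control, filled where the adjusted p was under 0.05, with each list's median as a bar. The export list lay above 0 for all 6 genes in both panels, with medians of 1.06 and 0.88, and the conjugation list lay below 0 in MYO5B(G519R) for all 17 tested genes.

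Pumps of the Abcc family export glutathione conjugates, and several are known NRF2 targets. Of 6 genes (5 Abcc pumps and Slc3a2), 3 rose in each model and none fell, where 27.4% and 26.8% of all genes passed in either direction. Abcc4 was at 21.1, 13.1, 13.5 and 12.3 CPM in controls and 36.3 to 51.7 CPM in MYO5BΔIEC (log2 1.61, SE 0.197, adjusted p = 0.00142), with 30.5 to 52.8 CPM in MYO5B(G519R) (log2 1.40, adjusted p = 0.00317), and the values without control culture 1 were 1.82 and 1.64. Abcc5 rose by 1.58 and 1.06 and Abcc3 by 1.36 and 1.08. These calls were kept with each culture left out, except that of Abcc3 in MYO5B(G519R) without control culture 3 (adjusted p = 0.0508). Among amino acid stress genes, Cth, the last enzyme of cysteine synthesis from methionine, fell by 1.24 and 1.41 (adjusted p = 0.0255 and 0.00375), and 1 and 3 of 10 genes passed, all lower. The Cth call was kept in 4 of 8 fits in MYO5BΔIEC and 8 of 8 in MYO5B(G519R). Of 6 NADPH supply genes, none passed in MYO5BΔIEC and Tkt was higher in MYO5B(G519R). Of 7 iron and heme genes, 2 fell in MYO5BΔIEC (Blvra and Hmox2) and none passed in MYO5B(G519R). The counts for export, NADPH, iron and heme, and amino acid stress genes without control culture 1 were 5, 3, 3 and 2 after deletion, and for G519R they were 5, 2, 3 and 4, where 42% and 46.2% of all genes passed. Of the amino acid stress genes called there, 1 was higher in each model, and 1 and 3 were lower. The median of that list moved from -0.59 to -0.12 after deletion and from -0.69 to -0.31 for G519R.

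Whether the 2 models differed from each other was tested directly. None of the 10 genes passed between MYO5B(G519R) and MYO5BΔIEC by edgeR or DESeq2, where 0.00557% of 17943 genes passed (1 gene, and 772 at an unadjusted p under 0.05). The groups overlapped for all 10, against 1.85% of all genes without overlap (0.83% higher and 1.02% lower). The median over the 10 genes was -0.18 and over all genes -0.01. Nfe2l2 was lower in MYO5B(G519R) by 0.37 on the log2 scale (95% interval -0.71 to -0.02, adjusted p = 0.838) and Gclm by 0.25 (-0.49 to -0.0078, adjusted p = 0.838), at unadjusted p of 0.0409 and 0.0441. For Txnrd1 the difference was -0.16, with an interval from -0.45 to 0.12, and for Prdx1 it was 0.05, from -0.25 to 0.35. A response specific to one model was thus not shown for any of the 10.

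Compound-1 was compared with vehicle in MYO5BΔIEC. None of the 10 genes passed by edgeR or DESeq2, where edgeR passed 0% of 18037 genes (1355 at an unadjusted p under 0.05) and DESeq2 passed 0.505%. The median over the 10 genes was 0.11 and over all genes 0.0034. Slc7a11 was the member that moved most. Treated cultures held 91.6, 145, 209 and 125 CPM against 52.1, 61.9, 67.9 and 125 CPM with vehicle, and the groups overlapped through vehicle culture 4. The log2 fold change was 0.86 (SE 0.294, 95% interval 0.22 to 1.51, unadjusted p = 0.0129, adjusted p = 0.56). It was 0.63 without treated culture 3 and 1.197 without vehicle culture 4, and did not pass in either fit. Srxn1 was the 1 member whose groups did not overlap, against 2.86% of all genes (1.59% higher and 1.27% lower), with treated cultures at 133 to 190 CPM and vehicle cultures at 119 to 133 CPM (log2 0.27, 95% interval -0.02 to 0.57, adjusted p = 0.697). The gap for Srxn1 was narrow, from 132.521 CPM in the highest vehicle culture to 132.576 CPM in the lowest treated culture, and in FPKM the groups overlapped (46.6 against 45.9). Gclc was at 125, 121, 272 and 162 CPM with Compound-1, so that culture 3 stood far above the rest (log2 0.38, interval -0.19 to 0.95). For Txnrd1 (-0.0063, -0.34 to 0.33) and Prdx1 (-0.02, -0.35 to 0.30) the intervals leave room for changes of either sign.

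Treated MYO5BΔIEC cultures were also set against the same controls. Of the 10 genes, 5 passed, 4 higher (Nfe2l2, Txnrd1, Srxn1, Slc7a11) and 1 lower (Prdx1), where 29.4% of 17937 genes passed, 15.7% higher and 13.7% lower. The median was 0.52 over the 10 genes and -0.05 over all. Nfe2l2 was at 465, 505, 507 and 497 CPM, above every control (log2 0.44, SE 0.14, adjusted p = 0.0391), and the spread of these 4 cultures (SD 19.6 CPM) was smaller than that of vehicle cultures (SD 81.6 CPM). This call was kept in 1 of 8 fits that left out a culture, that without control culture 1 (adjusted p = 0.019), and the others reached 0.125. It was lost without a filter (adjusted p = 0.0994), with the replicate block (0.0904), with the length offset (0.0646) and with both (0.138). Srxn1 rose by 0.79 (adjusted p = 0.0101), Txnrd1 by 0.85 (adjusted p = 0.00798) and Slc7a11 by 1.35 (SE 0.327, adjusted p = 0.0132). All 3 passed with each culture left out in turn. Prdx1 fell by 0.77 (adjusted p = 0.029), to 730 to 839 CPM, a call kept in 2 of 8 such fits and lost with the block (adjusted p = 0.0769), with block and offset (0.0553) and by limma (0.0633 and 0.0646). Gclc and Gsr lay above all controls without passing (adjusted p = 0.0855 and 0.107). The gap for Gclc was narrow, from 120.422 CPM in the highest control to 120.672 CPM in the lowest treated culture. Groups did not overlap for 5 of the 10 genes, all higher, against 27.9% of all genes in either direction and 14.3% higher. Slc7a11 was not among the 5, since treated culture 1 (91.6 CPM) lay below control culture 1 (94 CPM). Without control culture 1, 8 of the 10 passed, 6 higher and 2 lower, where 42.1% of all genes passed. Without any other single culture 3 to 5 passed, where as few as 16.7% of all genes passed. That more genes passed here than with vehicle is no test of Compound-1, since the direct comparison above is that test.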

How the data were processed

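Polyadenylated RNA from 16 enteroid cultures was sequenced, and the deposited tables hold read counts and FPKM per gene and culture. Per the study's methods and the submitters' processing notes, the authors aligned paired reads with STAR (2.5) to GRCm38 (mm10), parsed alignments with TopHat and counted reads per gene with HTSeq (0.6.1), and the deposited counts are not normalized. The authors computed FPKM from counts and gene length. The strand setting and treatment of reads with several matches are not given in the sources used here. Counts were tested with edgeR (4.0.16, R 4.3.3), quasi-likelihood, TMM scaling, 4 cultures against 4, over genes reaching 10 counts in 2 or more of the compared libraries, without a block. P-values were adjusted over all genes tested (Benjamini-Hochberg, threshold 0.05). The SE is the absolute log2 fold change divided by the square root of F, and intervals are at 95%. The tests were checked on simulated data.

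Alternatives were DESeq2 (1.42.0), its size factors in edgeR, library sizes without mitochondrial genes, other filters, a fit of all 4 groups, a replicate block, a gene length offset, both together, limma (3.58.1) on log2(FPKM + 1) and log2(FPKM + 0.1), and leaving out each culture. Replicates come from separate mice according to the study. The 10 genes and all lists were chosen with earlier results of these data known. All 10 are named, with those genes of each wider list called in the same direction in both models (at most 4, largest mean change) and Keap1, Bach1 and Slc3a2. The genes Mafg, Gstm2, Gstm4, Prdx2, Sod1, Glrx, Tkt, Blvra and Hmox2 in text or plot lie outside this rule.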

Additional observations from a re-analysis of the deposited data

Results flagged for a closer look

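Within groups of 4 cultures, the gap between the most extreme culture and its neighbour exceeded, as a share of the group's range, Dixon's 95% critical value in 14 of 108 sets of values from 27 named genes, and in 4 of the 40 sets from the 10 NRF2 genes. Chance flags about 1 set in 20. Among the 10 genes these were Prdx1 in control culture 1 (747 CPM), Nqo1 in MYO5B(G519R) culture 4 (61.8 CPM), Gclc in MYO5BΔIEC culture 1 (87.2 CPM) and Gclm in MYO5BΔIEC culture 3 (176 CPM). Control culture 1 also stood apart for Mgst1 (127 CPM), Gpx4 (299 CPM), Abcc4 (21.1 CPM) and Slc3a2 (233 CPM). MYO5B(G519R) culture 3 stood apart for Mgst1 (139 CPM), Prdx4 (25.6 CPM) and Cth (73 CPM), and culture 4 for Bach1 (69.6 CPM). In the treated group these were Gpx3 in culture 3 (13.3 CPM) and Bach1 in culture 1 (101 CPM).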

How the results depend on the processing

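Of 84 log2 fold changes followed, 39 kept their direction and their side of the threshold under every alternative. Among the 39, Txnrd1 passed throughout in each comparison with controls. Others of the 39 never passed, some of them from Compound-1 against vehicle and between the models, where 0% and 0.00557% of all genes passed. Of the 10 NRF2 genes, 3 were called between MYO5BΔIEC and controls, and 2 to 4 under the other settings, where Nqo1 was gained and Srxn1 or Prdx1 lost. The number called between MYO5B(G519R) and controls was 2, and became 4 by DESeq2 (Srxn1 and Gsr gained), 1 with the replicate block and 1 by limma on log2(FPKM + 1). The share of all genes called moved as well, from 26.8% to 32.5%, 20.7% and 25.2% in the same order. Between treated MYO5BΔIEC and controls it was 5, and became 8 with all 4 groups in 1 fit (Gclc, Hmox1 and Gsr gained), 3 with the replicate block and 3 with the block and length offset. Against controls, leaving out 1 culture gave 1 to 6 called genes after deletion, 1 to 5 for G519R and 3 to 8 after deletion with Compound-1, with the highest count in each case without control culture 1. Over these fits the share of all genes called ran from 16.7% to 42%, from 16.3% to 46.2% and from 16.7% to 42.1%. In the other comparisons no gene of the 10 was called under any alternative. The cause of these moves was not tested.

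The values that changed sign had missed the threshold before. Gclm in MYO5BΔIEC against controls was -0.0014 with the length offset and -0.0044 with block and offset, and in treated cultures -0.0052 and -0.0047. Slc7a11 in MYO5B(G519R) was -0.24 and -0.20 under the same settings. Bach1 in MYO5BΔIEC was 0.0039 and 0.0038 by limma at the larger and smaller pseudocount. Gclc in MYO5B(G519R) was 0.0288 by DESeq2 and with its size factors, 0.0072 without a filter, and 0.021 by limma at both pseudocounts. For Compound-1 against vehicle, Txnrd1 was 0.027 with all groups in 1 fit, 0.040 with the length offset, 0.038 with block and offset and 0.010 by limma at both pseudocounts. Prdx1 there was 0.0096, 0.032, 0.041, 0.0043 and 0.0044 in the same order, and Gclm 0.0012 with block and offset.

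With 1 culture left out, sign changes occurred within these ranges. Against controls, Bach1 in MYO5BΔIEC ran from -0.17 to 0.11, and in MYO5B(G519R) Nfe2l2 ran from -0.18 to 0.0069, Gclc from -0.093 to 0.053, Slc7a11 from -0.17 to 0.40 and Slc3a2 from -0.032 to 0.57. For Compound-1 against vehicle, Gclm ran from -0.094 to 0.054, Hmox1 from -0.036 to 0.29, Txnrd1 from -0.083 to 0.052 and Prdx1 from -0.091 to 0.080. Between the models, Nqo1 ran from -0.061 to 0.16 and Prdx1 from -0.017 to 0.16.

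Replicate numbers are shared between groups, but in no comparison did the correlation of deviations exceed 0.1 in every same-numbered pair. The lowest correlation of a pair against controls was -0.19 after deletion, -0.15 for G519R and -0.18 for the treated group, and it was -0.12 for Compound-1 against vehicle. Between the models the same-numbered pairs were all positive, from 0.057 to 0.52, against -0.41 to 0.28 for other pairs, but not every culture correlated best with its own number. The numbers were thus not taken as pairing. With the replicate block, 20.3% of all genes were called in MYO5BΔIEC, against 27.4% without it. The wider lists without control culture 1 were an alternative chosen after seeing the data. The 95% intervals of the fold changes set what this depth and number of cultures could resolve.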
